A study of Mus musculus with 12 samples.

Results

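The genes described here encode enzymes that detoxify quinones, carbonyls, alkenals, aldehydes, alcohols and epoxides, or that supply the sugar donor used to conjugate the products. There were 10 of them, chosen by name and with earlier results of these data known: *Nqo1*, *Nqo2*, *Cbr1*, *Cbr3*, *Akr1b8*, *Ptgr1*, *Adh7*, *Aox1*, *Ephx1* and *Ugdh*. Of these, 9 were matched to a probe through its RefSeq accession, among 32301 genes or transcripts on the array, and *Cbr1* was not analysed here. The RNA came from bone marrow-derived macrophages (BMDMs), that is, bone marrow cells cultured with M-CSF for 7 days. WT mice and KpCKO mice (*Keap1* flox/flox::*LysM*-Cre) were compared, both on a C57BL/6 background (C57BL6/J per the methods) and 8 weeks old. In KpCKO mice the Cre recombinase is expressed from the lysozyme M locus, so that *Keap1* is deleted in myeloid cells and the transcription factor Nrf2 is activated. BMDMs of each genotype received no stimulus (Con), LPS and IFNγ (M1) or IL-4 (M2), each stimulus being given for 6 h. There were 2 independent cultures, each of a WT mouse and a KpCKO mouse, with males used in the first and females in the other, so that the 12 arrays form 6 groups of 2 and culture cannot be told apart from sex.

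These enzymes belong to phase I and phase II metabolism of reactive compounds. Keap1 is the adaptor through which Nrf2 is degraded, and Nrf2, bound with a small Maf protein to antioxidant response elements, drives many detoxifying genes, of which *Nqo1* is the best known. In macrophages such enzymes handle quinones, lipid aldehydes and eicosanoids that arise during inflammation.

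Levels are given as the log2 signal of a probe less the 75th percentile of the same array, so that 0 is the signal at that percentile, and levels of different genes cannot be set against each other. The percentile itself lay between 548 and 1166 intensity units, lowest on a WT M1 array, and between 59.3% and 71.4% of the probes were well above background. *Keap1* itself was lower on every KpCKO array than on the WT array of its culture, with log2 differences of −1.46 for Con (adjusted p = 0.0336), −1.71 for M1 (0.00769) and −1.81 for M2 (0.0161). Without 1 of the arrays compared its adjusted p was between 0.166 and 0.225 in Con, at most 0.0521 in M1 and at most 0.139 in M2, and without the filter on dim probes it was 0.0661 in Con. Each slide held the 4 arrays of 1 state, so that genotypes were compared within a slide, whereas the effect of M1 or M2 stimulation cannot be told apart from that of its slide. All 7 macrophage markers with a probe, of 8 listed, were well above background in each group, and their summed signal, in multiples of the 75th percentile, was lower in KpCKO (405 to 469 in Con, 560 to 662 in M1 and 414 to 452 in M2) than in WT (583 to 639, 833 to 1041 and 488 to 545). The 8 listed include *Lyz2*, the lysozyme M gene, from whose locus Cre is expressed in KpCKO mice. Its part in this difference was not tested. The summed signal of 7 of 8 neutrophil markers was between 13.0 and 16.5 in culture 1 and between 3.15 and 9.76 in culture 2, with *Elane* not above background in any group. All 4 stromal markers were above background in each group (sum 22.0 to 52.3), *Ms4a1* and *Pax5* of 4 B cell markers were not above background in any (sum 0.0359 to 0.131), and the sum of 3 mast cell or basophil markers lay between 0.0514 and 0.173. *Cd3d* of 4 T cell markers was not above background in any group, while their sum was 0.11 to 0.175 in Con, 1.58 to 3.16 in M1 and 0.148 to 0.214 in M2, over 3 of the 4 arrays in M1 and in M2, as 1 array in each lacked a marker. The sum of 4 dendritic cell markers was likewise higher in M1 (0.764 to 1.79) than in Con (0.188 to 0.293) and M2 (0.26 to 0.422). Of these, *Cd209a* was not above background in WT M1, KpCKO M1 or WT Con, but was on an array of each other group. *Zbtb46* was not above background in WT Con. The part of these markers in the results below was not tested, and in bulk RNA fewer cells of a type and less RNA per cell cannot be told apart.

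The core of the antioxidant response element, TGACNNNGC or TGAGNNNGC on either strand, was searched in the RefSeq promoter windows (GRCm38.p6) of all 10 genes, each of 300 bases with 250 before the start of the gene and 50 after it. Only the window of *Ugdh* held the core, against 30.8% of all 27025 genes with a window. The AP-1 heptamer TGACTCA, which fits the start of the core but lacks its final GC and was searched on both strands, was in the windows of *Adh7* and *Aox1* and in those of 5.95% of all genes. The 250 bases before the start are shown for *Nqo1*, as the best-known Nrf2 target among these genes, for *Adh7* and *Aox1*, as those with the heptamer, and for *Ugdh*, as the one with the core. Capitals mark the heptamer (*Adh7* and *Aox1*) or the core (*Ugdh*), and *Nqo1* has neither.
*Nqo1*, chr8:107403206-107403455, minus strand: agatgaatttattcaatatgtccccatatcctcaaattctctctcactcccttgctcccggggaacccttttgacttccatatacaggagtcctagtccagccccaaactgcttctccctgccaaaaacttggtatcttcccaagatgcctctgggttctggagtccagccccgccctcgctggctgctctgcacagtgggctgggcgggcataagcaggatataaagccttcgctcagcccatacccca
*Adh7*, chr3:138217523-138217772, plus strand: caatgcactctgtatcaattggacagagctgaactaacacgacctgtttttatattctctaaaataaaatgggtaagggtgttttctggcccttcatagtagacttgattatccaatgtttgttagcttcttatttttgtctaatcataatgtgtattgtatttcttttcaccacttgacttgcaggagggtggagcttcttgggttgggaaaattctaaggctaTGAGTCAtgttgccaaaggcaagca
*Aox1*, chr1:58029719-58029968, plus strand: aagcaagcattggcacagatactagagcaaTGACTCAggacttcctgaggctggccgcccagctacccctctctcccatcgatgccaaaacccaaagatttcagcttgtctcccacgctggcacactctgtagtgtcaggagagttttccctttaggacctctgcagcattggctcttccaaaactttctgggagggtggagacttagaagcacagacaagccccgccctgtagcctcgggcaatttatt
*Ugdh*, chr5:65435843-65436092, minus strand: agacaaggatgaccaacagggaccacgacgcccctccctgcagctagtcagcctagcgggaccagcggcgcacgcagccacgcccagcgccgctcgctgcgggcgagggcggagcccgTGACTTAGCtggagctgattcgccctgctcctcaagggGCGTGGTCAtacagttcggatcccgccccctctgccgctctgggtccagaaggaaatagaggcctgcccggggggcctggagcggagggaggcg
In *Ugdh* the cores TGACTTAGC and, on the other strand, TGACCACGC begin 132 and 94 bases before the start. The heptamer begins 25 bases before the start of *Adh7*, where it lies on the other strand, and 220 bases before that of *Aox1*. A match of letters is a description of these short windows and not a binding site, and elements farther from a start were not searched.

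The first comparison asked how the enzymes differed between KpCKO and WT BMDMs in each state. In untreated BMDMs 7 of the 9 genes were higher in KpCKO (limma, adjusted p under 0.05), as were 1.39% of all 22367 genes tested. In M1-BMDMs 7 of the 9 were higher, against 7.43% of all genes, and in M2-BMDMs 7 of the 9, against 1.28%. These were *Nqo1*, *Cbr3*, *Akr1b8*, *Ptgr1*, *Adh7*, *Aox1* and *Ephx1* in each state, and *Nqo2* and *Ugdh* did not pass the test in any. Of these, *Adh7* passed the filter on dim probes through the KpCKO groups only. Over the 9 genes the log2 difference had medians of 1.63 (Con), 2.35 (M1) and 1.57 (M2), beside 0.0016, −0.0865 and 0.0194 for all genes tested. As the genes were chosen with earlier results known, these counts and medians beside those of all genes are a description. The states come from the same cultures, so that the comparisons of the genotypes are not independent repeats of each other.

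**Figure D1:**
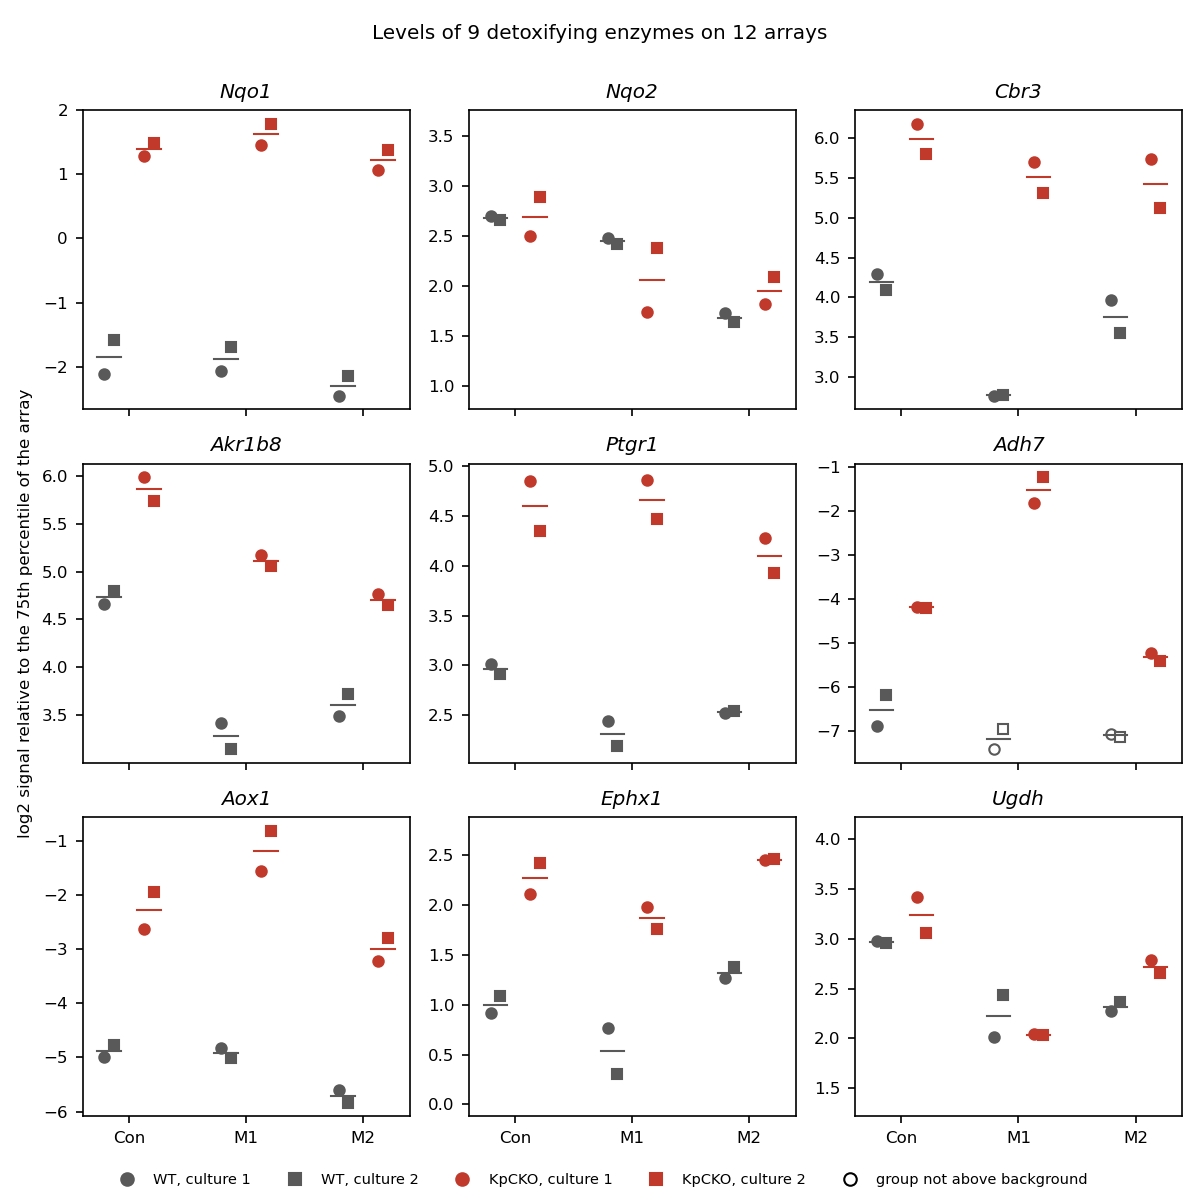
Log2 level of each of the 9 enzymes on the 12 arrays (y axis, relative to the 75th percentile of the array) in Con, M1 and M2 (x axis), with grey points for WT, red for KpCKO, circles for culture 1, squares for culture 2 and bars for the mean of 2 arrays. Open points mark groups in which neither array was well above background, which were *Adh7* in WT M1 and WT M2. The grey and red points overlap for *Nqo2* in Con and for *Ugdh* in M1. With 2 arrays a group, points that lie apart are not a test.

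*Nqo1* (probe A_51_P424338, NM_008706) encodes NAD(P)H quinone oxidoreductase, which reduces quinones to hydroquinones without a semiquinone intermediate. Its log2 levels in cultures 1 and 2 were −2.11 and −1.58 in WT Con and 1.29 and 1.48 in KpCKO Con, −2.07 and −1.69 in WT M1 and 1.46 and 1.79 in KpCKO M1, and −2.45 and −2.15 in WT M2 and 1.07 and 1.38 in KpCKO M2. All 6 KpCKO arrays were above all 6 WT arrays, and the gap was similar in the 3 states. The log2 difference was 3.23 ± 0.106 (SE, adjusted p = 6.88e-05) in Con, 3.50 (6.77e-05) in M1 and 3.52 (7.17e-05) in M2, which is 9.38-fold, 11.3-fold and 11.5-fold. *Nqo1* stayed past the test in each state whichever array was left out, with adjusted p between 0.000158 and 0.0029.

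*Nqo2* (probe A_51_P229536) encodes the related quinone reductase that takes electrons from dihydronicotinamide riboside in place of NAD(P)H. Its levels were 2.70 and 2.67 in WT Con and 2.50 and 2.89 in KpCKO Con, 2.48 and 2.42 in WT M1 and 1.74 and 2.38 in KpCKO M1, and 1.73 and 1.64 in WT M2 and 1.82 and 2.09 in KpCKO M2. The groups overlapped in Con, while both KpCKO arrays lay below the WT arrays in M1 and above them in M2. The differences were 0.01 in Con (95% interval −0.45 to 0.48, adjusted p = 0.994), −0.39 in M1 (−0.85 to 0.07, 0.205) and 0.27 in M2 (−0.19 to 0.73, 0.613). A dimmer probe of the gene gave 0.13, −0.25 and 0.37. The intervals of *Nqo2* and *Nqo1* lay apart in each state.

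*Cbr3* (probe A_51_P481159) encodes a carbonyl reductase of the short-chain dehydrogenase family. Its levels were 4.29 and 4.09 in WT Con and 6.18 and 5.81 in KpCKO Con, 2.76 and 2.77 in WT M1 and 5.70 and 5.32 in KpCKO M1, and 3.97 and 3.55 in WT M2 and 5.74 and 5.12 in KpCKO M2. The WT M1 arrays were the lowest of the 12. *Cbr3* was higher in KpCKO by 1.81 ± 0.152 (SE, adjusted p = 0.00305) in Con, 2.74 (0.000526) in M1 and 1.67 (0.00484) in M2, or 3.50-fold, 6.68-fold and 3.18-fold. Without WT M2 culture 1 or WT M2 culture 2 the adjusted p in M2 rose to 0.0512 or 0.0506.

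*Akr1b8* (probe A_51_P128987) encodes an aldo-keto reductase that reduces aldehydes to alcohols. It stood at 4.67 and 4.80 in WT Con and 5.99 and 5.74 in KpCKO Con, at 3.42 and 3.14 in WT M1 and 5.17 and 5.06 in KpCKO M1, and at 3.49 and 3.72 in WT M2 and 4.76 and 4.65 in KpCKO M2. The KpCKO M1 arrays lay above the WT Con arrays, and the KpCKO M2 arrays were near them. These arrays were on different slides, and this comparison was not tested. The differences between the genotypes were 1.13 ± 0.148 (SE, adjusted p = 0.0147) in Con, 1.83 (0.00121) in M1 and 1.10 (0.0175) in M2, which is 2.19-fold, 3.56-fold and 2.14-fold. The call in M1 held whichever array was left out, whereas those in Con and M2 were lost without any of the 4 arrays compared, with adjusted p between 0.0621 and 0.136 in Con and between 0.0509 and 0.127 in M2.

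*Ptgr1* (probe A_51_P444437) encodes prostaglandin reductase, which reduces the double bond of alkenals and inactivates eicosanoids. Its levels were 3.02 and 2.92 in WT Con and 4.85 and 4.35 in KpCKO Con, 2.44 and 2.19 in WT M1 and 4.86 and 4.47 in KpCKO M1, and 2.52 and 2.55 in WT M2 and 4.27 and 3.93 in KpCKO M2. Every KpCKO array was above every WT array. The differences were 1.63 ± 0.142 (SE, adjusted p = 0.00358) in Con, 2.35 (0.000615) in M1 and 1.57 (0.00484) in M2, and the excess was largest, at 5.08-fold, in M1. *Ptgr1* passed the test in each state whichever array was left out, with adjusted p of at most 0.0484.

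*Adh7* (probe A_51_P233797) encodes an alcohol dehydrogenase that oxidises ethanol and retinol. Its levels were −6.88 and −6.18 in WT Con and −4.17 and −4.19 in KpCKO Con, −7.42 and −6.96 in WT M1 and −1.80 and −1.22 in KpCKO M1, and −7.07 and −7.14 in WT M2 and −5.23 and −5.41 in KpCKO M2. The probe was well above background on all 6 KpCKO arrays, on 1 WT Con array and on no WT M1 or WT M2 array. It thus passed the filter on dim probes through the KpCKO groups only. The KpCKO M1 arrays were the highest of the 12. On the deposited background-subtracted signal the excess of KpCKO over WT was at least 19.5-fold in M1 and at least 2.60-fold in M2. The limma tests used the WT signals at background and gave adjusted p = 0.000177 and 0.0177. The log2 difference in Con was 2.35 ± 0.240 (SE, adjusted p = 0.00619), with 1 of the 2 WT Con arrays at background. For these bounds the WT level on each array was taken as the signal of the probe or, where higher, the dimmest signal that still counted as well above background.

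The M2 result of *Adh7* turned to a log2 difference of −0.50 (adjusted p = 0.384) with the normexp background correction (median intensities of spot and local background). With normexp the difference in Con was 0.69 (0.924), while that in M1 stayed past the test at 1.82 (0.0419). The M1 and M2 values with normexp lie below the bounds given above, which hold for the main processing only. Without WT Con culture 1 or KpCKO Con culture 1 the adjusted p in Con was 0.0569 or 0.0664, and without any of the 4 M2 arrays that in M2 was between 0.0538 and 0.124.

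*Aox1* (probe A_51_P333111) encodes a molybdenum-containing aldehyde oxidase. Its levels were −4.99 and −4.77 in WT Con and −2.63 and −1.94 in KpCKO Con, −4.82 and −5.01 in WT M1 and −1.54 and −0.81 in KpCKO M1, and −5.60 and −5.84 in WT M2 and −3.21 and −2.78 in KpCKO M2. All of these were well above background, and the KpCKO M1 arrays were again the highest. *Aox1* was higher in KpCKO by 2.60 ± 0.267 (SE, adjusted p = 0.00636) in Con, 3.74 (0.00083) in M1 and 2.72 (0.00594) in M2, which is 6.05-fold, 13.4-fold and 6.58-fold. With normexp the difference was 1.53 (0.0684) in Con, 2.04 in M1 and 0.52 (0.287) in M2. The call in Con was lost without either WT array or KpCKO Con culture 2, and that in M2 without WT M2 culture 2 or KpCKO M2 culture 2, with adjusted p of at most 0.0646 and 0.053.

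*Ephx1* (probe A_51_P508289) encodes the microsomal epoxide hydrolase, which adds water to epoxides. Its levels were 0.91 and 1.09 in WT Con and 2.11 and 2.42 in KpCKO Con, 0.76 and 0.30 in WT M1 and 1.98 and 1.76 in KpCKO M1, and 1.26 and 1.37 in WT M2 and 2.45 and 2.46 in KpCKO M2. The gap was about the same in the 3 states. The differences were 1.27 ± 0.188 (SE, adjusted p = 0.0243) in Con, 1.33 (0.00796) in M1 and 1.13 (0.0368) in M2, or 2.41-fold, 2.52-fold and 2.19-fold, and another probe of the gene gave log2 differences of 1.25, 1.17 and 1.06. With normexp the adjusted p was 0.121 in Con and 0.131 in M2, and without the filter on dim probes 0.0518 and 0.0769. The calls in Con and M2 were lost without any of the 4 arrays compared (adjusted p between 0.0762 and 0.194, and between 0.156 and 0.25), and that in M1 without KpCKO M1 culture 1 (0.0576).

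*Ugdh* (probe A_51_P137953) encodes the dehydrogenase that makes UDP-glucuronic acid, the donor for glucuronidation. It stood at 2.98 and 2.95 in WT Con and 3.42 and 3.06 in KpCKO Con, at 2.02 and 2.43 in WT M1 and 2.04 and 2.03 in KpCKO M1, and at 2.27 and 2.36 in WT M2 and 2.78 and 2.66 in KpCKO M2. Both KpCKO arrays lay above the WT arrays in Con and M2, and the groups overlapped in M1. The differences were 0.27 in Con (95% interval −0.14 to 0.69, adjusted p = 0.591), −0.19 in M1 (−0.60 to 0.22, 0.479) and 0.40 in M2 (−0.01 to 0.81, 0.362). *Ugdh* was 1 of the 2 genes that did not pass the test. Whether the core of the element in its window bears on this was not tested.

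**Figure D2:**
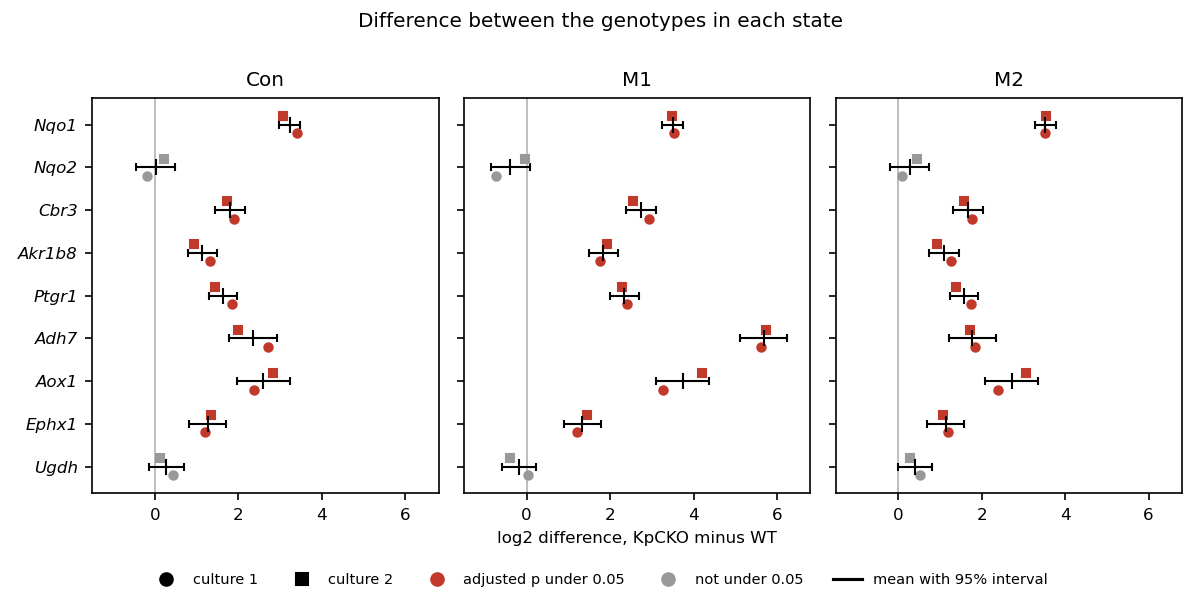
Log2 difference between KpCKO and WT (x axis) for the 9 enzymes (y axis) in Con, M1 and M2, with circles for culture 1, squares for culture 2 and black bars for the mean with its 95% interval from limma. Red points mark adjusted p under 0.05, and *Adh7* in M1, whose WT level is at background, lies farthest to the right at 5.68, while the intervals of *Nqo2* and *Ugdh* span 0 in each state.

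The next comparison asked how the enzymes responded to M1 stimulation. In WT BMDMs 5 of the 9 genes were lower in M1 than in Con, as were 28.7% of all genes tested, and none was higher, against 34.5%. The 5 include *Adh7*, which was at background on both WT M1 arrays and on 1 WT Con array. In KpCKO BMDMs 4 were lower, against 25.4% of all genes, and 2 were higher, against 24.8%. The responses to M1 and M2 share the Con arrays of their genotype.

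*Akr1b8* and *Cbr3* were lowered most in WT, with log2 differences of −1.45 ± 0.148 (SE, adjusted p = 0.000175) and −1.42 ± 0.152 (0.000218). In KpCKO their differences were −0.75 (0.00517) and −0.49 (0.0331). *Ugdh* was lower in both genotypes, with differences of −0.74 (0.0084) in WT and −1.20 (0.00129) in KpCKO. *Ptgr1* was lower in WT at −0.65 (0.00604), and in KpCKO it differed by 0.06 (0.756). *Nqo2* differed by −0.23 in WT (0.328) and was lower in KpCKO at −0.64 (0.031), while its dimmer probe gave −0.68 in WT and −1.07 in KpCKO. With quantile normalization *Nqo2* passed in WT at −0.55 (0.0433).

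*Adh7* and *Aox1* rose in KpCKO M1, by 2.67 ± 0.240 (SE, adjusted p = 0.000171), or 6.38-fold, and by 1.10 ± 0.267 (0.0123), or 2.15-fold. In WT *Aox1* differed by −0.04 (95% interval −0.67 to 0.59, adjusted p = 0.907). *Adh7* passed the test in WT as lower (0.0464), with no fold given, since both WT M1 arrays and 1 WT Con array were at background, and with normexp its difference there was 0.67 (0.167). *Nqo1* differed by −0.04 in WT (0.778) and 0.24 in KpCKO (0.104), and *Ephx1* by −0.47 (0.0647) and −0.40 (0.119). *Ephx1* passed as lower in both genotypes with quantile normalization (0.0369 in WT and 0.0414 in KpCKO) and with the mean of probes (0.0415 and 0.0476), and in WT with the filter on all 12 arrays (0.0488).

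Some of these calls changed when an array was left out. In KpCKO that of *Cbr3* was lost without any of the 4 arrays (adjusted p 0.0881 to 0.134), that of *Nqo2* without either Con array or M1 culture 1 (at most 0.176), and that of *Aox1* without Con culture 1 or M1 culture 2 (0.0851 and 0.087). In WT that of *Ptgr1* was lost without Con culture 2 (0.0523), that of *Adh7* without Con culture 2, M1 culture 1 or M1 culture 2 (at most 0.286), and *Ephx1* passed without M1 culture 1 (0.0139). Without the pairing by culture *Adh7* in WT (0.0759) and *Nqo2* (0.0552) and *Cbr3* (0.172) in KpCKO did not pass. Without the filter on dim probes *Adh7* in WT (0.0592) and *Cbr3* in KpCKO (0.0555) did not, nor did *Cbr3* in KpCKO with normexp (0.138).

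**Figure D3:**
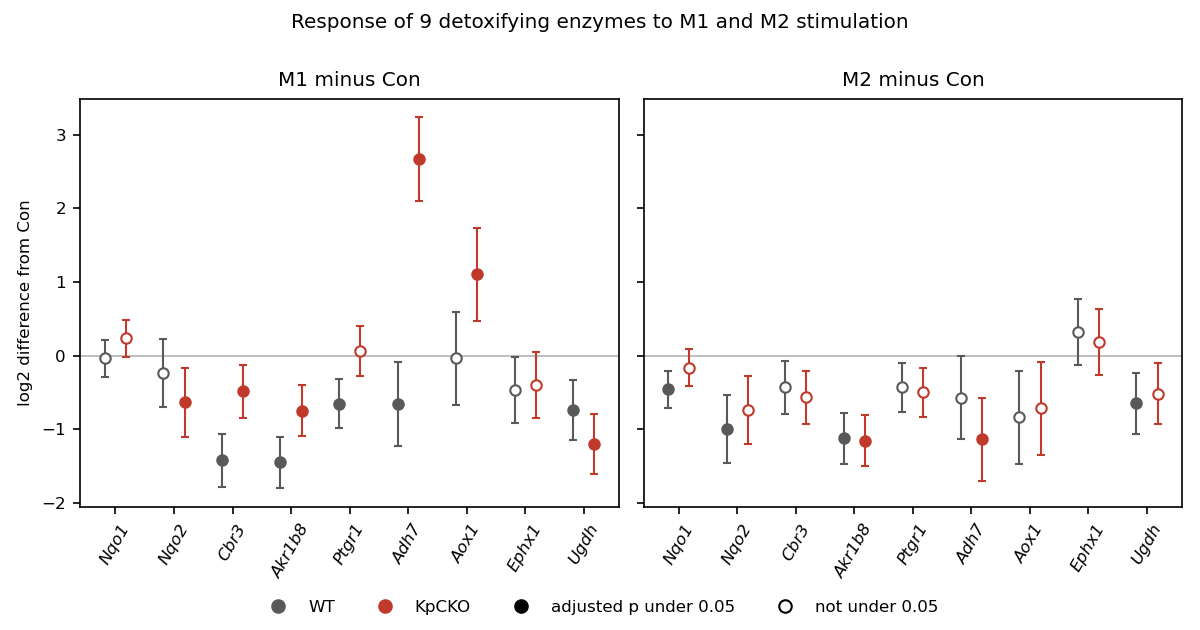
Log2 difference from Con (y axis) of the 9 enzymes (x axis) after M1 and M2 stimulation in WT (grey) and KpCKO (red) BMDMs, with the 95% interval from limma, filled where adjusted p was under 0.05. *Adh7* (2.67) and *Aox1* (1.10) in KpCKO M1 lie above 0 and are the only filled points that do.

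After M2 stimulation 4 of the 9 genes were lower than in Con in WT, against 8.2% of all genes tested, and 2 in KpCKO, against 4.54%, and none was higher in either, against 8.62% and 5.68%. *Akr1b8* fell in both genotypes, by 1.12 on the log2 scale in WT (adjusted p = 0.00491) and by 1.16 in KpCKO (0.00697). In WT *Nqo2* fell by 1.0 (0.0174), *Ugdh* by 0.65 (0.0471) and *Nqo1* by 0.46 (0.0296), beside values of −0.74 (0.0594), −0.52 (0.11) and −0.16 (0.377) in KpCKO. With normexp *Nqo1* differed by −0.07 in WT (0.779). *Adh7* fell by 1.14 in KpCKO (0.0315), and with normexp it differed by −0.44 (0.806).

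The other enzymes did not pass the test. *Cbr3*, *Ptgr1* and *Aox1* had negative differences in both genotypes, of −0.43, −0.43 and −0.84 in WT and −0.57, −0.50 and −0.72 in KpCKO, and *Ephx1* had positive ones, of 0.32 and 0.19. With quantile normalization *Cbr3* and *Ptgr1* passed in both genotypes and *Nqo2* in KpCKO, which gave 5 genes in KpCKO in place of 2, and these 3 also passed in KpCKO with the filter on all 12 arrays. Without the filter on dim probes *Nqo1* (0.0712) and *Ugdh* (0.0896) in WT and *Adh7* in KpCKO (0.0589) did not pass. In WT the calls of *Nqo1*, *Nqo2* and *Ugdh* were lost without any of the 4 arrays compared (adjusted p between 0.0553 and 0.199), and in KpCKO that of *Adh7* without any of the 4 (0.0603 to 0.174) and that of *Akr1b8* without Con culture 1 or M2 culture 2 (0.053 and 0.0508). Without the pairing by culture 2 genes were lower in WT, as *Nqo1* (0.315) and *Ugdh* (0.0659) were lost, and 1 in KpCKO, as *Adh7* (0.065) was.

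Whether a response differed between the genotypes was tested as the change in KpCKO less the change in WT. For M1, *Adh7* alone of the 9 genes passed, among 0.0447% of all genes with a higher response in KpCKO (0.0268% had a lower one), at a difference of 3.33 ± 0.339 (SE, adjusted p = 0.0479). As *Adh7* was at background in WT M1, this size depends on signals at background. *Adh7* also entered the test only through the KpCKO groups, as no WT group had both arrays well above background. Without the filter on dim probes its adjusted p was 0.107. The call was lost without any of 7 of the 8 arrays compared, WT M1 culture 1 being the exception (adjusted p 0.0236 to 0.175 over the 8), and under 5 of the other settings, among them normexp (1.13, 0.722).

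The differences in the M1 response were also positive in both cultures for *Aox1* (1.14, adjusted p = 0.234), *Cbr3* (0.93, 0.152), *Ptgr1* (0.71, 0.19), *Akr1b8* (0.70, 0.203) and *Nqo1* (0.27, 0.406), none of which passed the test, and the value for *Ephx1* was 0.07 (0.918). They were negative for *Ugdh* (−0.46, 0.396) and *Nqo2* (−0.40, 0.494). For M2 none of the 9 genes passed the test (limma), against 0.00894% of all genes, or 2 genes, with 451 genes at an unadjusted p under 0.05. The differences in the M2 response lay between −0.57 for *Adh7* and 0.30 for *Nqo1*.

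Related enzymes of the same pathways were listed by class, and 41 of 53 passed the filter on dim probes and were tested. Among the 41, *Aldh3a1*, *Akr1c14*, *Akr1c6* and *Adh4* passed this filter through a KpCKO group only, as *Adh7* did. *Aldh3a1* is counted below as higher in Con. The part of the filter in the medians below was not tested. In Con 3 of the 41 were higher in KpCKO and none lower, against 1.39% of all genes higher and 0.827% lower. In M1 7 were higher and none lower, against 7.43% and 8.58%, and in M2 1 was higher and none lower, against 1.28% and 0.644%. Their median log2 differences were 0.06 (Con), 0.37 (M1) and 0.08 (M2), below that of the 9 enzymes in each state. As both lists were chosen with earlier results of these data known, this contrast is a description and not a test.

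Enzymes that passed the test and differed by more than 1 on the log2 scale were *Blvrb*, *Dhrs11* and *Aldh3a1*. *Blvrb*, the flavin and biliverdin reductase, was at 4.30 and 4.58 in WT Con and 5.66 and 5.64 in KpCKO Con, and at 3.62 and 4.07 in WT M2 and 5.38 and 5.33 in KpCKO M2. It was higher in KpCKO by 1.21 (adjusted p = 0.0153) in Con and 1.51 (0.00778) in M2, calls that were lost without any of the 4 Con arrays (0.0576 to 0.136) and without 3 of the 4 M2 arrays, KpCKO M2 culture 2 being the exception (0.0324 to 0.0782). Without the pairing by culture the adjusted p in Con was 0.0539. *Dhrs11*, a short-chain reductase, was at −1.11 and −0.91 in WT M1 and 0.26 and −0.03 in KpCKO M1, a difference of 1.12 (0.00623). *Aldh3a1*, an aldehyde dehydrogenase, was not well above background on either WT Con array. On the deposited signal it was at least 1.68-fold higher in KpCKO Con. The limma test used the WT signals at background and gave adjusted p = 0.0331. The call was lost without any of the 4 arrays, without the pairing by culture (0.06) and without the filter on dim probes (0.063). It was also lost with normexp, where the log2 difference was 0.32, below that bound. By class, 1 of 5 quinone and flavin reductases was higher in each state, 3 of 10 aldo-keto reductases and 2 of 10 short-chain carbonyl reductases in M1 alone, and 2 of 10 aldehyde dehydrogenases in Con and 1 in M1. None of 2 alcohol dehydrogenases and of 1 gene each among the molybdenum hydroxylases, epoxide hydrolases, alkenal reductases and enzymes of UDP-glucuronic acid supply passed the test in any state.

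**Figure D4:**
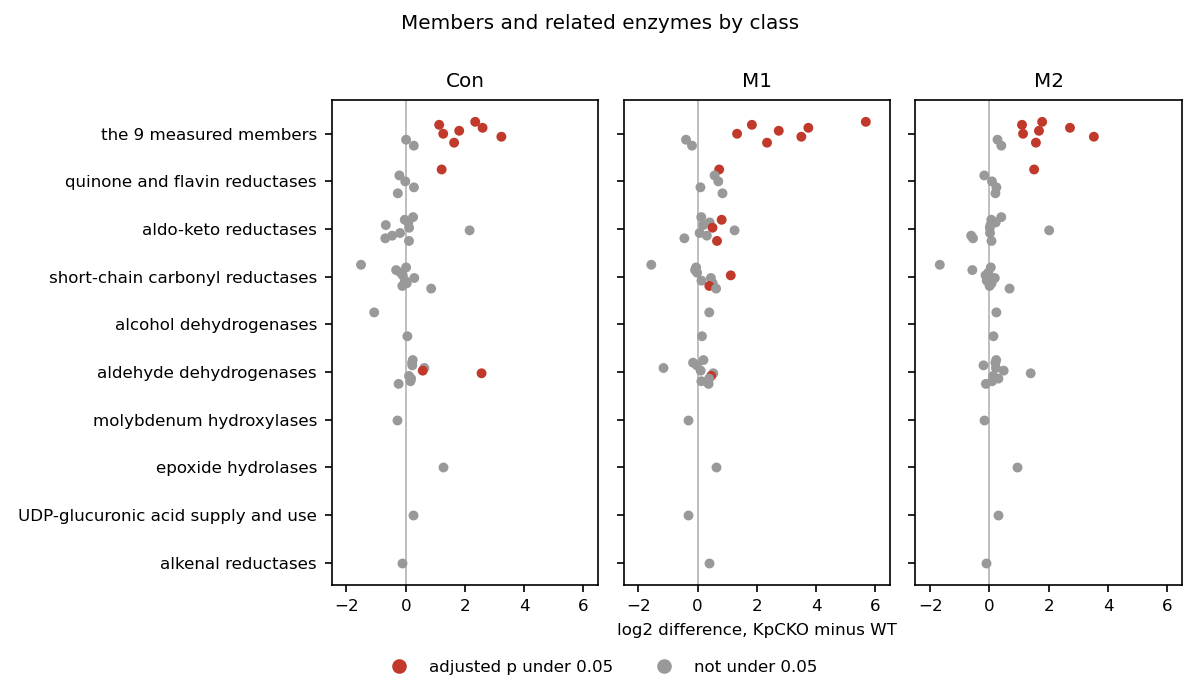
Log2 difference between KpCKO and WT (x axis) in Con, M1 and M2 for the 9 enzymes and for 41 related enzymes by class (y axis), with 1 point for each gene and red for adjusted p under 0.05. In the top row 7 red points lie above 1 in each state, and among the related enzymes 3, 7 and 1 points are red.

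Over the 12 arrays, which share slides, cultures and the split by genotype, the levels of *Nqo1* had Pearson's r of 0.95 with *Aox1*, 0.94 with *Ptgr1*, 0.87 with *Cbr3*, 0.85 with *Adh7*, 0.84 with *Ephx1* and 0.78 with *Akr1b8*. It was 0.17 with *Ugdh* and 0.04 with *Nqo2*, and 0.50 between *Ugdh* and *Nqo2*. Among all other named genes the highest r with *Nqo1* were those of *Gsta1* (0.994), *Heph* (0.986), *Fam135a* (0.982), *Prl2c3* (0.979) and *A530064D06Rik* (0.978). *Gsta1*, a glutathione S-transferase, differed between the genotypes by 4.88 (Con), 4.94 (M1) and 4.61 (M2), and *Fam135a* by 0.77, 0.80 and 0.82, so that genes with a like pattern differed in the size of the gap. These genes were chosen for this pattern, and their values are a description with no test.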

How the data were processed

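RNA of BMDMs was measured on 12 one-colour Agilent arrays. The authors deposited, per the file headers of Feature Extraction 10.7.3.1, the background-subtracted intensity of each spot with flags, not scaled between arrays. They also deposited a table of log2 values, normalized with GeneSpring per the methods, which equals the log2 intensity less the 75th percentile of the array, centred on the median of each probe (r at least 0.99996).

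Outlier spots were left out, spots of a probe were averaged, and the 75th percentile was subtracted from each log2 intensity. Of 41174 probes, 26690 were matched by accession to a RefSeq symbol, and each gene was represented by its brightest probe. The 22367 genes that both arrays of some group showed well above background were fitted in 1 limma model (limma 3.58.1, R 4.3.3) with 6 group means and culture as a block, 5 residual degrees of freedom, and Benjamini-Hochberg adjustment over all genes at 0.05. The fit was tested on simulated data for probes well above background on all 12 arrays, without an effect of mouse. That test does not bear on dim genes such as *Adh7*. The pairing comes from the description of the series, and deviations from the group means correlated at 0.162 to 0.597 over 15 pairs of groups. An exact test of 2 arrays against 2 cannot reach 0.05. The number of arrays limits the precision.

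The genes and lists were chosen with earlier results of these data known. The genes named are the 10 enzymes, *Keap1*, related enzymes past the test with a log2 difference over 1 the same way in both cultures, and the 5 genes most correlated with *Nqo1*. The array design uses another genome build than the promoter windows. Alternatives were quantile normalization, normexp (offset 50), the authors' table, no filter, a filter on all 12 arrays, the mean of probes, no pairing, mouse as a random block, each array left out, the groups compared alone, and the methods' t-test. Tables and plots used Python 3.11.15, pandas 2.3.3 and matplotlib 3.10.9.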

Additional observations from a re-analysis of the deposited data

Results flagged for a closer look

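The M1 response of *Adh7* differed between the genotypes by 3.33 on the log2 scale (limma, adjusted p = 0.0479), higher in KpCKO in both cultures (2.91 and 3.75). *Adh7* was at background in WT M1 and passed the filter on dim probes through the KpCKO groups only. The M1 response of *Ptgr1* was 0.0045 and 0.11 in the KpCKO cultures, beside −0.58 and −0.73 in the WT cultures. The KpCKO value, 0.06, did not pass the test (adjusted p = 0.756), and it was −0.36 with quantile normalization and −0.085 and −0.020 without KpCKO Con culture 2 or KpCKO M1 culture 1, so that an opposite direction is not established. The test of the difference between the genotypes, 0.71, did not pass (adjusted p = 0.19).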

How the results depend on the processing

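With 2 arrays a group, the calls between the genotypes depended on a spread estimated from all 6 groups. Of the 7 enzymes higher in KpCKO, 4 remained in Con and 4 in M2 with normexp, and 0 in each state passed when the 4 arrays compared were fitted alone or with the methods' t-test after adjustment, which called 7, 7 and 8 of the 9 at an unadjusted p under 0.05 in Con, M1 and M2. Without an array the counts lay between 3 and 4 in Con, 6 and 7 in M1 and 2 and 4 in M2. They lay between 3 and 5 for M1 against Con in WT, between 3 and 4 in KpCKO, at 1 for M2 against Con in WT and between 0 and 1 in KpCKO, between 0 and 1 for the difference in the M1 response, and at 0 for that in the M2 response.

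For M2 against Con in WT 2 of the 4 passed without the filter and 2 without the pairing by culture. In KpCKO, in place of 2, the count was 5 with quantile normalization, 4 with the filter on all 12 arrays, 1 with normexp, 1 without the filter, 1 without the pairing, and 0 with the groups compared alone. Without the pairing 7 enzymes passed in each comparison of the genotypes, and 4 and 4 for M1 against Con in WT and KpCKO. The difference in the M1 response of *Adh7* passed in the authors' table and without the pairing, and the count was 0 with quantile normalization, normexp, no filter, the filter on all 12 arrays (which leaves *Adh7* out), the mean of probes and the mouse as a random block.

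Some signs turned. With normexp the values were 0.032 for *Ugdh* and −0.50 for *Adh7* between the genotypes in M1 and M2, 0.14 for *Nqo1*, 0.67 for *Adh7* and 0.44 for *Aox1* for M1 in WT, 0.76 for *Adh7* and 0.45 for *Aox1* for M2 in WT, and −0.083 for *Nqo1* in the difference in the M2 response. With quantile normalization they were 0.049 for *Nqo1* for M1 in WT, −0.36 for *Ptgr1* for M1 in KpCKO and −0.011 for *Ephx1* in the difference in the M1 response, which was −0.00757 with the mean of probes. Leaving out an array gave −0.12 to 0.15 for *Nqo2* in Con and −0.44 to 0.064 for *Ugdh* in M1 between the genotypes, −0.15 to 0.077 for *Nqo1* and −0.32 to 0.24 for *Aox1* for M1 in WT, −0.085 to 0.20 for *Ptgr1* for M1 in KpCKO, −0.010 to 0.38 for *Ephx1* for M2 in KpCKO, and −0.20 to 0.34 for *Ephx1* in the difference in the M1 response. None of these passed the test in its turned direction, and the cause was not tested.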
